A study of Mus musculus with 23 samples.

Results

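The genes described here are 10 mouse genes of lipid droplets and triglyceride storage, *Plin2*, *Plin4*, *Plin5*, *Cidea*, *Cidec*, *Pnpla2*, *Pnpla3*, *G0s2*, *Mogat1* and *Dgat2*, chosen by name from the 48897 genes of the table. All 10 were found in it, and they were chosen with earlier results of these data known. RNA was measured in 23 libraries of poly(A) RNA. In the tumor-bearing group, CT26 cells, a mouse colon carcinoma line grown from BALB/c mice, had been injected into the wall of the cecum of male BALB/c mice aged 4 to 6 weeks, and 3 weeks later the primary tumor and the liver of each of 9 mice were collected. The liver of these mice is called pre-metastatic liver, because the study saw no metastasis in it. The control liver came from 5 sham-operated mice, male BALB/c mice of the same age range injected with culture medium. No genetic change or drug was part of the design, every tumor came from a single cell line, and the tumor and the pre-metastatic liver with the same number came from the same mouse.

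A lipid droplet is a store of triglyceride wrapped in a single layer of phospholipid and coated with proteins. Perilipins (the *Plin* genes) coat the droplet and control access of lipases to it, and CIDE proteins (*Cidea*, *Cidec*) sit where droplets touch and let lipid pass from the smaller to the larger droplet. *Pnpla2* encodes ATGL, the lipase that starts the breakdown of stored triglyceride, *G0s2* encodes its inhibitor, and *Mogat1* and *Dgat2* encode acyltransferases that build triglyceride. In liver many of these genes are known targets of PPAR alpha, the receptor that senses fatty acids in fasting, and hepatocytes store fat in droplets both in fasting and in fatty liver.

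The libraries held 44587556 to 79773163 counts. Levels are given as RPKM (the count divided by the length of the gene and the total of the library), and 9 of the 10 genes had at least 10 counts in at least 5 livers and were tested there, *Cidea* being the exception. The labelled tissues were checked against markers. All 8 hepatocyte markers (*Alb* and others) were found in every liver, where they summed to 29984 to 65399 RPKM. In the tumors they summed to 8.22 to 264 RPKM, the highest in mice M12 and M10, where *Alb* was 173 and 86.4 RPKM against 2.97 to 15 RPKM in the other tumors. Markers of epithelium (*Epcam*, *Krt8*, *Krt18*, *Krt19*, *Cdh1*) summed to 3.88 to 14.5 RPKM in the tumors and to 193 to 326 RPKM in the livers. The 7 enterocyte markers summed to 34.3 to 113 RPKM in the tumors and 16.2 to 310 RPKM in the livers. *Krt20*, 1 of the 7, was at 27.8 to 113 RPKM in the tumors and 0 to 1.31 RPKM in the livers. Among the livers *Krt20* was highest in M6, and *Slc26a3*, *Vil1* and *Krt19* were highest in M12 (3.07, 0.633 and 16.3 RPKM). *Adipoq*, a defining adipocyte gene, was at 2.04, 2.65 and 1.49 RPKM in the livers of mice C1, C6 and M5 and at 0 to 0.249 RPKM in the others, so results on adipocyte genes are also given without these 3 livers. The livers also differed in genes of the circadian clock. An index of these genes ran from -2.35 to -0.102 in 9 livers, 4 control and 5 pre-metastatic (the early phase), and from 0.981 to 2.92 in 5 livers, 1 control and 4 pre-metastatic (the late phase), and the hour of collection is not given in the sources used here.

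Upstream sequence of the genes is shown first, since several of them are known PPAR alpha targets and fell in the pre-metastatic liver. RefSeq promoters (GRCm38.p6, the build called mm10) were found for 8 of the 10 genes, all but *Cidea* and *Dgat2*, in 10 windows from 250 bases before to 50 bases after the start. Both strands were searched for the DR1 element bound by PPAR and RXR (direct repeats of AGGTCA with 1 base between them, up to 2 mismatches), the E-box CACGTG bound by clock proteins, the HIF core ACGTG, which lies inside that E-box, and the D-box TTATGNAA. A DR1 match was found for *Plin2* and *Mogat1* and for no other of the 8 genes, against 3.86% of 32851 promoters. Both matches had 2 mismatches. With 1 mismatch at most, none of the 10 windows held the element, against 0.554% of promoters, and with 0 mismatches none did, against 0.0396%. *Plin2* also held an E-box and with it the HIF core, from 4 bases before to 2 bases after the start, against 7.15% and 19.6% of promoters. No D-box was found, against 3.38% of promoters. The 250 bases before the start are printed 5′ to 3′ on the gene's strand for the pair with a DR1 match and, as examples without any of these letters, for *Cidec* and *G0s2*, which had the largest falls in the pre-metastatic liver. Capitals mark the matches.
Plin2 (chr4:86670060-86670309, minus strand): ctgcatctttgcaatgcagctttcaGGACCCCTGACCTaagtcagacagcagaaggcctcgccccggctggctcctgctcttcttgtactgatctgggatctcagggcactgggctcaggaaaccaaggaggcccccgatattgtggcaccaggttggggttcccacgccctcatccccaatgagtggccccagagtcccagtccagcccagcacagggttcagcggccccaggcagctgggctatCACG
Mogat1 (chr1:78510810-78511059, plus strand): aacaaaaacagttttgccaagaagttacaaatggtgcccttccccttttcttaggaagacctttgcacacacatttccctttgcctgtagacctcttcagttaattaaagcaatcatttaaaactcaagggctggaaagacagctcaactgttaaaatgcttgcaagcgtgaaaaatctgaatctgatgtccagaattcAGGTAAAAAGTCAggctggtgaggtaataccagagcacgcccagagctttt
Cidec (chr6:113435761-113436010, minus strand): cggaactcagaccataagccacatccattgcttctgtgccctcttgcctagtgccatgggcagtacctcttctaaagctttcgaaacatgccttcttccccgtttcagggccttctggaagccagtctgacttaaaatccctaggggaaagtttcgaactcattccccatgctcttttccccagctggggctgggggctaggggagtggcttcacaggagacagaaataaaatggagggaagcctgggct
G0s2 (chr1:193273189-193273438, minus strand): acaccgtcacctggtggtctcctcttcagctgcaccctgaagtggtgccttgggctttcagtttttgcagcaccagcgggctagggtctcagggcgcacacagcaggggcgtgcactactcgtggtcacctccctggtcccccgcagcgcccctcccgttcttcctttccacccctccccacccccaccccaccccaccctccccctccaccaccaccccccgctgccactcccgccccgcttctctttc
The matches are letters in these windows, and no binding was measured.

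The comparison of pre-metastatic with control liver asks how the liver of a tumor-bearing mouse differs before any metastasis is seen. Of the 9 genes tested, *Cidec*, *G0s2*, *Plin4*, *Plin5* and *Pnpla2* fell, and *Pnpla3* rose from a level near the limit of detection. *Plin2*, *Mogat1* and *Dgat2* did not pass the test. The 5 falls ranged from 2.02-fold (*Pnpla2*) to 11.2-fold (*Cidec*), and in each of the 5 genes every pre-metastatic liver lay below every control liver. Over all 16987 genes tested with edgeR, 30.9% were called at an adjusted *p* under 0.05, 13.3% lower and 17.6% higher, and 6.09% did not overlap with the pre-metastatic livers lower. A called fall of at least 4-fold, seen in 4 of the 9 genes, was seen in 0.530% of all genes. Because the genes were chosen with earlier results of these data known, this contrast is a description and no test of enrichment. The median log2 fold change was -1.89 over the 9 genes, which is the value of *Mogat1*, a gene with few counts that was not called, and 0.01 over all genes. With libraries scaled by their totals instead of TMM, the calls over all genes split into 2354 higher and 2789 lower, against 2996 and 2254, with a shift of -0.08 on the log2 scale, which is small beside the 5 falls.

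**Figure D1:**
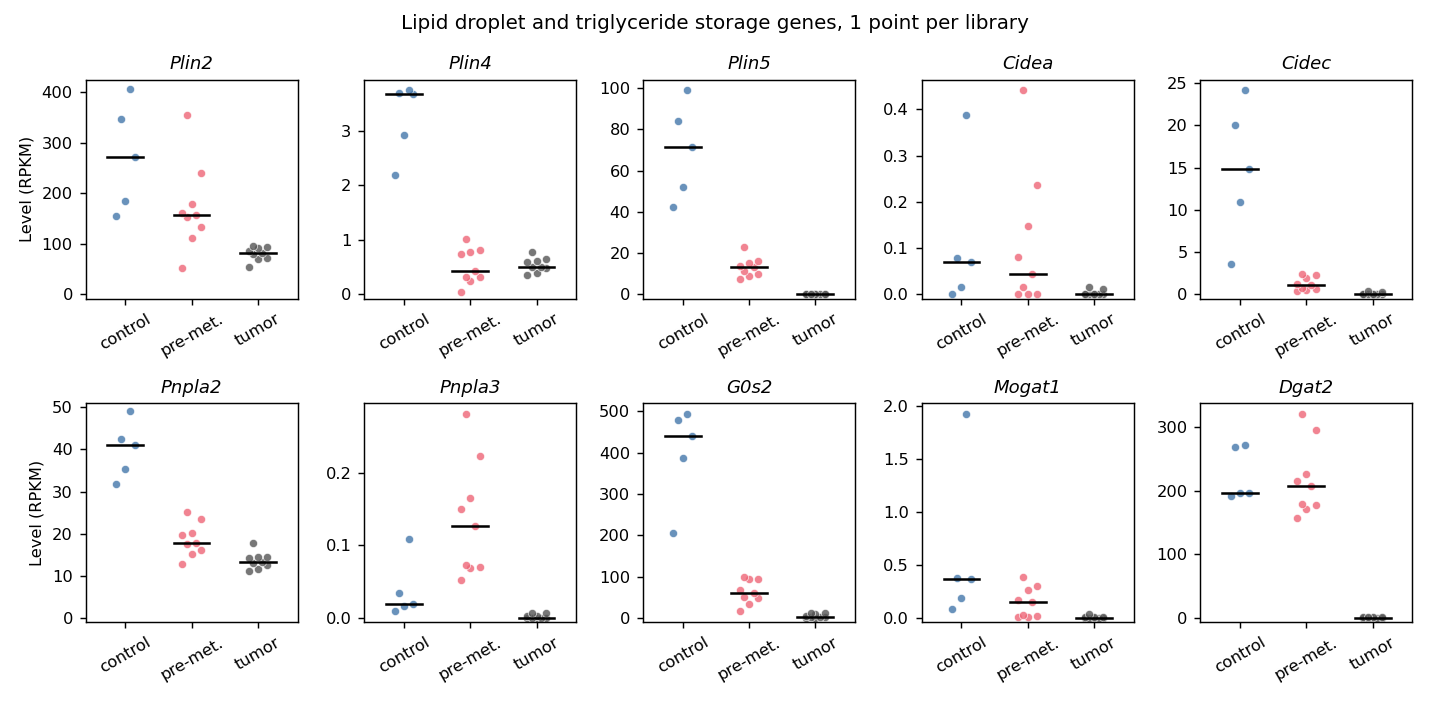
Level in RPKM (y axis, linear, a different range in each panel) of each of the 10 genes in the 5 control livers, 9 pre-metastatic livers and 9 primary tumors. Points are libraries and black lines are medians. For *Cidec*, *G0s2*, *Plin4*, *Plin5* and *Pnpla2* every pre-metastatic liver lies below every control liver, and *Plin5* and *Dgat2* are near 0 in every tumor.

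Among the coat proteins, *Plin5* (chr17:56111597-56117606, minus strand), which holds droplets close to mitochondria in cells that burn fat, gave the most even fall. It was at 42.6, 52.1, 71.3, 83.9 and 99.1 RPKM in the control livers and at 7.44 to 23 RPKM (median 13.3) in the pre-metastatic livers. The lowest control liver was thus above the highest pre-metastatic liver, M5, one of the livers with adipocyte RNA. Its log2 fold change was -2.32 (SE 0.22, *n* = 9 and 5, adjusted *p* = 1.86e-05, edgeR), a 5.0-fold fall, and the exact two-sided rank-sum test gave *p* = 0.000999, the smallest that 5 against 9 libraries allow. In bulk tissue fewer cells of a type and less RNA per cell cannot be told apart.

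*Plin4* (chr17:56100587-56109953, minus strand), a perilipin best known from adipose tissue and muscle, lies beside *Plin5* and was low in every liver. It was at 2.18, 2.92, 3.67, 3.69 and 3.75 RPKM in the control livers and at 0.0538 to 1.01 RPKM (median 0.434) in the pre-metastatic livers, with M8 lowest and M5 highest. The log2 fold change was -2.53 (SE 0.43, adjusted *p* = 0.000740, edgeR), a 5.78-fold fall, with the same exact *p* of 0.000999. Its last 19 bases overlap *Hdgfrp2* on the other strand, and whether counting used the strand is not given in the sources used here. *Hdgfrp2* had 1552 to 2469 counts in control and 1044 to 2240 in pre-metastatic liver, against 929 to 1505 and 17 to 419 counts of *Plin4*.

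*Plin2* (chr4:86626910-86670059, minus strand), the main coat protein of hepatocyte droplets, whose protein is kept stable by the fat it covers, was the most abundant perilipin in every liver. The control livers were at 155, 184, 272, 347 and 407 RPKM and the pre-metastatic livers at 52.9 to 354 RPKM (median 158). The groups overlapped widely, and the extremes of the pre-metastatic group, M6 and M5, lay below and within the control range. Its difference on the log2 scale was -0.61 (SE 0.31, adjusted *p* = 0.148, edgeR), with an interval of 2 SE from -1.22 to 0.00, that is from 0.429-fold to no difference. Of the perilipins outside the 10 genes, *Plin3* was at 21.8 to 33.0 RPKM in control and 19.8 to 38.7 RPKM in pre-metastatic liver, and *Plin1* was highest in the 3 livers with *Adipoq*, at 0.337, 0.835 and 0.506 RPKM. The table lists *Plin2* in 2 rows with different NCBI gene numbers, and the row whose number RefSeq gives for *Plin2* was used. The other row held 1 to 16 counts.

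*Cidec* (chr6:113424634-113435760, minus strand), which lets droplets grow by fusion and is known to be switched on in fatty and fasted liver, showed the largest fall of the 10 genes. It was at 3.60, 10.9, 14.9, 20.0 and 24.2 RPKM in the control livers and at 0.371 to 2.37 RPKM (median 1.08) in the pre-metastatic livers. Control liver C5 was the lowest of its group and still above all 9 pre-metastatic livers. The log2 fold change was -3.48 (SE 0.44, adjusted *p* = 9.62e-05, edgeR), an 11.2-fold fall, rank 18 among the falls of the 2254 genes called lower, with an exact *p* of 0.000999. *Cideb*, the related protein of hepatocytes, was at 179 to 322 RPKM in control and 137 to 246 RPKM in pre-metastatic liver and was not called. The ratio of *Cidec* to *Cideb* was 0.0201 to 0.0810 in control and 0.00189 to 0.00971 in pre-metastatic liver.

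*Cidea*, which is typical of brown fat and appears in fatty liver, was at the limit of detection. It had 0 to 23 counts in the control livers (0 to 0.387 RPKM, median 0.0711) and 0 to 29 in the pre-metastatic livers (0 to 0.442 RPKM, median 0.0441), with 1 of 5 and 3 of 9 libraries at 0. A count of 0 allows up to 3 counts, here 0.0323 to 0.0578 RPKM. It did not pass the filter on low counts, and the exact rank-sum test gave *p* = 1.0, so a difference was not detectable at this depth. The highest control liver, C6, was also the highest in *Adipoq*, while the highest pre-metastatic liver, M6, had no *Adipoq* count.

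*Pnpla2* (chr7:141455188-141460743, plus strand) fell less than its inhibitor. It was at 31.8, 35.4, 41.0, 42.5 and 49.0 RPKM in the control livers and at 12.8 to 25.2 RPKM (median 17.7) in the pre-metastatic livers, with no overlap. Its log2 fold change was -1.02 (SE 0.15, adjusted *p* = 0.000234, edgeR), a 2.02-fold fall, with an exact *p* of 0.000999. *G0s2* (chr1:193272160-193273188, minus strand) was at 206, 386, 440, 479 and 494 RPKM in the control livers, the most abundant of the 10 genes in 4 of them, and at 16.4 to 99.1 RPKM (median 60.4) in the pre-metastatic livers. The lowest control value, that of C7, the control liver of the late phase, was still above the highest pre-metastatic value. Its log2 fold change was -2.62 (SE 0.34, adjusted *p* = 0.000107, edgeR), a 6.16-fold fall, with an exact *p* of 0.000999.

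Inhibitor and lipase can also be set against each other. The ratio of *G0s2* to *Pnpla2* (RPKM, given without a test) was 6.50 to 11.7 (median 10.9) in control liver, 1.07 to 4.77 (median 3.80) in pre-metastatic liver and 0.0523 to 1.08 (median 0.295) in the primary tumor. Control and pre-metastatic livers did not overlap in it. Of 10 other genes of lipolysis, among them *Abhd5*, the activator of *Pnpla2*, and *Lipe*, the hormone-sensitive lipase, 2 rose (*Ces1g* and *Aadac*) and none fell. Over all genes tested 17.6% rose and 13.3% fell.

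**Figure D2:**
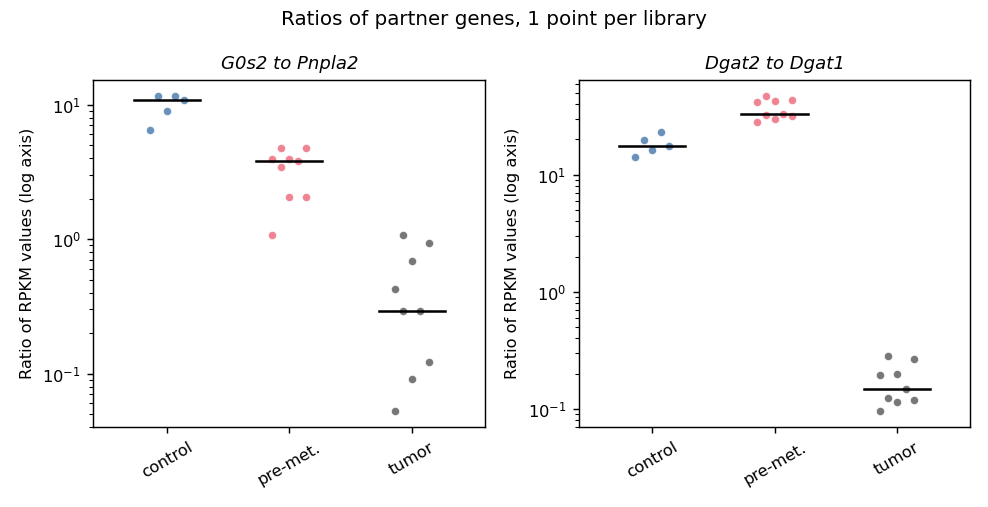
Ratio of RPKM values (y axis, log scale) of *G0s2* to *Pnpla2*, on the left, and of *Dgat2* to *Dgat1*, on the right, in each library, with medians as black lines. The control livers lie above the pre-metastatic livers in the first ratio (6.50 to 11.7 against 1.07 to 4.77) and below them in the second (14.2 to 23.4 against 28.2 to 47.5).

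*Pnpla3* (chr15:84167784-84189521, plus strand), a lipase and acyltransferase of droplets whose gene is known to follow insulin and feeding, was the gene called in the other direction. Counts were only 3, 5, 5, 10 and 34 in the control livers (0.00956, 0.0169, 0.0189, 0.0350 and 0.109 RPKM) and 12 to 94 in the pre-metastatic livers (0.0518 to 0.281 RPKM, median 0.126). Control liver C5 reached into the pre-metastatic range, and the other 4 control livers lay below it. The log2 fold change was 1.94 (SE 0.60, adjusted *p* = 0.0227, edgeR), 3.84-fold higher, with an exact *p* of 0.0120. The call was lost without control liver C1, C4 or C6 (adjusted *p* 0.0569, 0.0594 and 0.0591), within the early phase (1.41, adjusted *p* = 0.144), with the clock index in the model (1.66, adjusted *p* = 0.0545) and without the 3 livers with *Adipoq* (1.56, adjusted *p* = 0.133), and without C5 the log2 fold change was 2.85 (adjusted *p* = 0.00339). Beside it, *Srebf1*, the lipogenic regulator that insulin induces, rose from 7.87 to 21.9 RPKM in control to 26.7 to 68.1 RPKM in pre-metastatic liver (log2 fold change 2.07, adjusted *p* = 0.000130, edgeR). Whether insulin or feeding had a part in either rise was not tested.

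*Dgat2* (chr7:99153663-99182713, minus strand), the main enzyme of the last step of triglyceride synthesis in liver, lay in the same range of RPKM as *Plin2*. It was at 191, 196, 197, 268 and 271 RPKM in the control livers and at 157 to 321 RPKM (median 208) in the pre-metastatic livers. The groups overlapped over most of their range. On the log2 scale the difference was 0.03 (SE 0.16, adjusted *p* = 0.910, edgeR), and an interval of 2 SE ran from 0.815-fold to 1.28-fold. The sign of this small difference turned with the processing, so it has no direction. *Dgat1*, the other enzyme of this step, fell 2.0-fold (SE 0.09 on the log2 scale, adjusted *p* = 8.36e-06, edgeR), from 11.3 to 13.6 RPKM in control to 5.13 to 6.96 RPKM in pre-metastatic liver, and the ratio of *Dgat2* to *Dgat1* moved from 14.2 to 23.4 up to 28.2 to 47.5.

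*Mogat1* (chr1:78511060-78606964, plus strand), an acyltransferase known to be raised in fatty liver, was low. It was at 0.0849, 0.193, 0.371, 0.383 and 1.93 RPKM in the control livers (7 to 146 counts) and at 0.0113 to 0.393 RPKM in the pre-metastatic livers (1 to 30 counts). The log2 fold change was -1.89 (SE 0.76, adjusted *p* = 0.0730, edgeR), and this value rested on C7, without which it was -0.73 (adjusted *p* = 0.497).

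**Figure D3:**
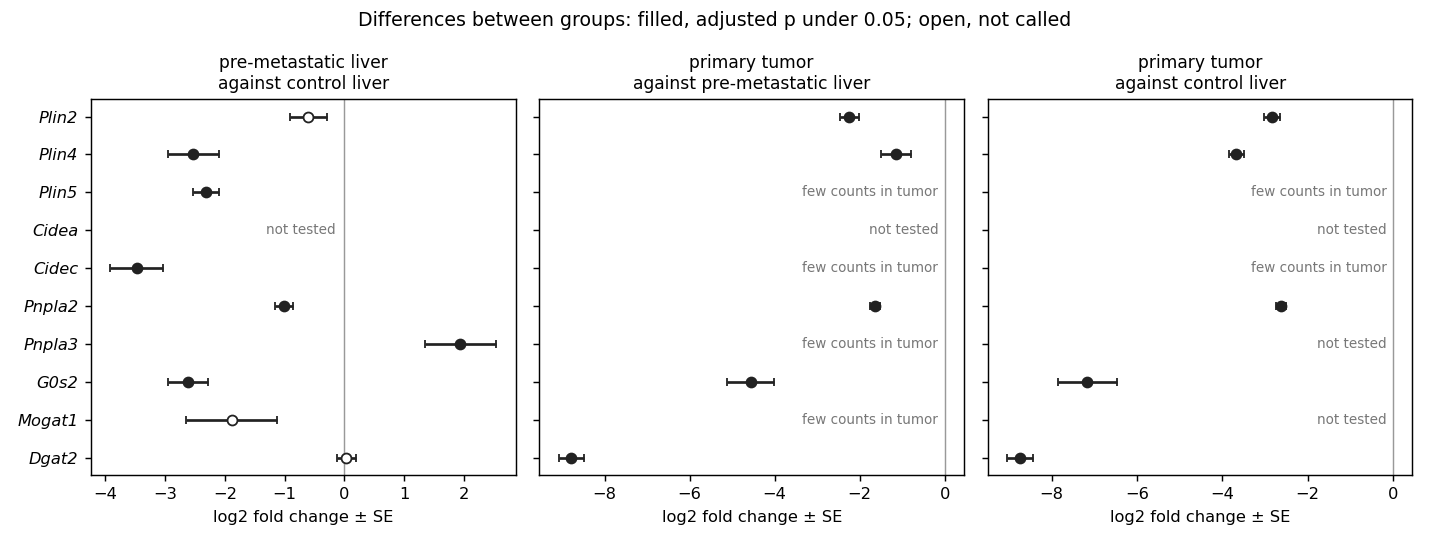
Log2 fold change (x axis) of each gene in the 3 comparisons, with bars of 1 SE from edgeR. Filled points have an adjusted *p* under 0.05, open points do not, and genes with too few counts are marked as not tested, or as having few counts in tumor where they passed through the livers. In the livers *Cidec* lies lowest at -3.48 and *Pnpla3* highest at 1.94, and in the tumor comparisons *Dgat2* lies lowest at -8.78 and -8.74.

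The 5 falls were also found within the early phase, with 4 control and 5 pre-metastatic livers. There the log2 fold changes were -3.60 for *Cidec*, -3.18 for *G0s2*, -2.56 for *Plin4*, -2.38 for *Plin5* and -1.19 for *Pnpla2*, with adjusted *p* of 0.000863 to 0.0136 (edgeR). Only 1 control liver was in the late phase, so no comparison within it was made. Without the 3 livers with *Adipoq* the log2 fold changes were -3.68, -2.54, -2.71, -2.55 and -0.98 in the same order, with adjusted *p* of 0.000438 to 0.00732, while the number of genes called over the whole table dropped from 5250 to 2674. All 6 leukocyte markers were called higher in pre-metastatic liver, with sums of 82.1 to 228 RPKM against 30.6 to 65.3 RPKM in control, and 4 of 8 hepatocyte markers were called lower and 1 higher, with sums of 29984 to 65399 RPKM against 45088 to 52796 RPKM. The 7 adipocyte markers summed to 5.55 to 53.2 RPKM in control and 5.25 to 17.4 RPKM in pre-metastatic liver, and neither of the 2 that could be tested was called. Other markers were higher too: 4 of 5 neutrophil markers tested (sums of 7.25 to 118 against 6.39 to 17.9 RPKM), *Col1a1* and *Col3a1* of 7 stellate cell and fibroblast markers (log2 fold changes 2.71 and 3.01, sums of 45.9 to 154 against 76.5 to 111 RPKM), and *Krt19* and *Cdh1* of 5 epithelial markers (2.03 and 0.97, sums of 193 to 326 against 263 to 300 RPKM). The part of these cells in the falls was not tested.

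*Dgat2* was the gene whose levels parted the clock phases in the pre-metastatic livers. In the pre-metastatic livers it was at 157 to 208 RPKM in the 5 early livers and at 215 to 321 RPKM in the 4 late livers, with no overlap, as was seen with the late livers higher in 2.53% of the genes in these livers. In the control livers the phases did not part, with 191 to 271 RPKM in the 4 early livers and 268 RPKM in the late liver. In the tumors, parted by the phase of the liver of the same mouse, it was at 0.659 to 0.959 RPKM in early and 1.32 to 1.75 RPKM in late mice, against 1.25% of genes that parted this way. Tumors M10 and M12 also had the most *Alb*. If all *Alb* in a tumor came from the liver of the same mouse, RNA from that liver would carry 0.813 of the 1.72 RPKM of *Dgat2* in M10 and 0.901 of the 1.75 RPKM in M12. In M1 and M2 it would carry 0.0428 of 1.36 and 0.214 of 1.32 RPKM. With that share taken off, M10 and M12 were at 0.904 and 0.846 RPKM, within the 0.634 to 0.927 RPKM of the early mice. M1 and M2 were at 1.32 and 1.11 RPKM, above the early mice. The phases thus overlapped under this assumption, and the source of the *Alb* was not tested. Before that share was taken off, no other of the 10 genes parted the phases in either tissue.

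**Figure D4:**
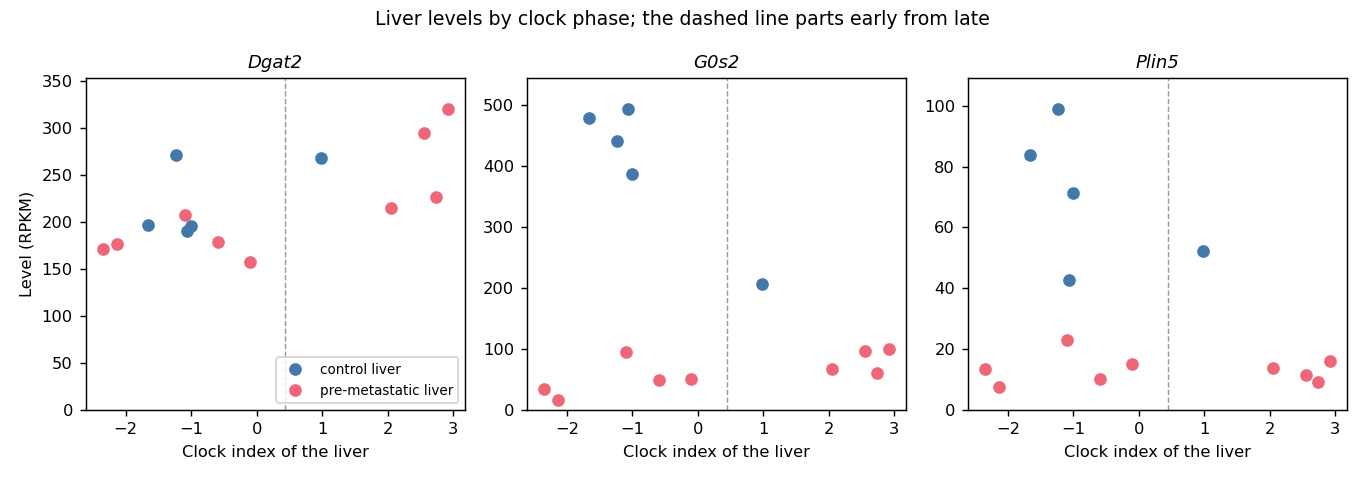
Level in RPKM (y axis) of *Dgat2*, *G0s2* and *Plin5* in the 14 livers against the clock index of the liver (x axis, no unit), with the dashed line between the early and the late phase. *Dgat2* is at 157 to 208 RPKM in the early and 215 to 321 RPKM in the late pre-metastatic livers, while *G0s2* and *Plin5* are lower in every pre-metastatic liver than in any control liver.

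Around these genes, a list of 48 other genes of droplets and triglyceride metabolism showed no shared direction in the livers. Of 46 tested, 6 rose and 9 fell, with a median log2 fold change of -0.07. Over all genes tested 17.6% rose and 13.3% fell. *Fabp5*, a fatty acid binding protein typical of skin and macrophages, rose most, from 1.94 to 5.51 RPKM in control to 49.0 to 255 RPKM in pre-metastatic liver (log2 fold change 5.17, SE 0.45, adjusted *p* = 9.13e-06, edgeR). The other rises were those of *Acsl3*, the acyl-CoA synthetase of nascent droplets (2.23), *Ces1g* (1.70), *Fitm1* (1.53), *Acsl5* (0.75) and *Aadac* (0.51). The 6 largest falls were those of *Fabp2* (-1.74), the droplet enzyme gene *Hsd17b11* (-1.35), *Slc27a2* (-1.09), *Gpat4*, an acyltransferase of the first step of triglyceride synthesis (-1.01), *Dgat1* (-1.0) and *Hsd17b13* (-0.80).

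Of 12 PPAR alpha targets of fatty acid oxidation and fasting, 7 fell and 0 rose, with a median log2 fold change of -1.29, and none of the 12 is among the 10 genes. Among all genes tested 13.3% fell and 17.6% rose, and this list too was chosen with earlier results of these data known. *Cyp4a14*, a fatty acid hydroxylase, fell from 356 to 1110 RPKM in control to 0.296 to 15.2 RPKM in pre-metastatic liver (log2 fold change -7.40, adjusted *p* = 6.96e-05, edgeR). *Cyp4a10* (-7.06), *Acot1* (-3.62), *Ehhadh* (-2.24), *Vnn1* (-1.79) and *Acadm* (-1.44) fell as well. Of 13 transcription regulators of fat storage, *Srebf1* (2.07) and *Mlxipl* (0.53) rose, *Nr1h3* (-0.24) fell and 10 were not called. As a list they were not called more often than all genes tested, of which 30.9% were called. *Ppara* itself was at 9.82 to 20.9 RPKM in control and 6.54 to 35.3 RPKM in pre-metastatic liver and was not called (log2 fold change 0.52, adjusted *p* = 0.295).

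**Figure D5:**
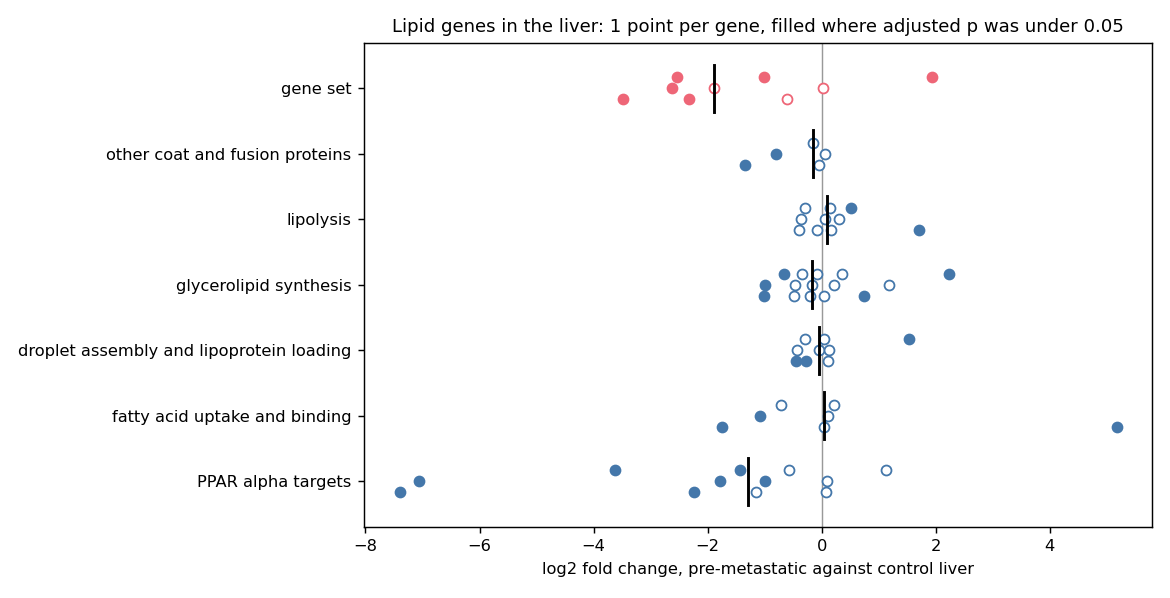
Log2 fold change of pre-metastatic against control liver (x axis) for each tested gene of the 10 described here (top row), of 5 groups of related lipid genes and of PPAR alpha targets. Points are genes, filled where the adjusted *p* was under 0.05, and black bars are medians. They lie at -1.89 for the tested genes of the 10 (the value of *Mogat1*, which was not called), near 0 in the related groups and at -1.29 for the PPAR alpha targets.

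The primary tumor was compared with the liver of the same mice and with control liver. These are different tissues, and 83.3% and 82.1% of all genes tested were called, 39.5% and 38.0% of the genes tested lower and, against pre-metastatic liver, 43.8% higher. Both comparisons use the same tumors. The fit against pre-metastatic liver did not pair tumor and liver by mouse, and a fit with the mouse as a block was run as an alternative. *Plin2*, *G0s2*, *Dgat2* and *Pnpla2* were lower in tumor than in either liver group, and *Plin4* was lower than in control liver. *Plin5*, *Cidec*, *Mogat1* and *Pnpla3* reached 10 counts in too few tumors and passed the count filter through the livers where at all, so their tests are not given and their levels are described only. The scale matters here: with libraries scaled by their totals, tumor values rise by 1.18 against pre-metastatic and 1.08 against control liver on the log2 scale, and the calls split into 13345 higher and 4201 lower in place of 8642 and 7805, and 12846 and 4124 in place of 8525 and 7337.

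*Dgat2* was at 0.659 to 1.75 RPKM (median 0.959, 78 to 274 counts) in the tumors. Its log2 fold change against the pre-metastatic livers was -8.78 (SE 0.30, adjusted *p* = 1.42e-15, edgeR), with no overlap, and 14.2% of genes likewise did not overlap with the tumors lower. *Dgat1* was at 5.93 to 6.99 RPKM in the tumors, so that the ratio of *Dgat2* to *Dgat1* was 0.0951 to 0.284 there. *Plin5* had 0 to 10 counts in the tumors (0 to 0.0875 RPKM, median 0.0174), with 2 of 9 at 0, where 3 counts would be 0.0201 to 0.0304 RPKM. The lowest pre-metastatic liver was at 7.44 RPKM. The highest tumor, M12, is the one with most *Alb*. If all of that *Alb* came from the liver of the mouse, liver RNA would carry 0.0582 of the 0.0875 RPKM, which was not tested.

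*Plin2* was the most abundant of the 10 genes in every tumor, at 54.2 to 96.5 RPKM (median 81.0), a narrower range than in either liver group. With TMM it was 4.73-fold lower than in pre-metastatic liver (log2 fold change -2.24, SE 0.23, adjusted *p* = 1.89e-08, edgeR) and 7.12-fold lower than in control liver. With library totals the log2 fold changes were -1.09 and -1.76 (adjusted *p* = 0.000313 and 3.30e-07, edgeR). In RPKM the tumors overlapped the pre-metastatic livers (52.9 to 354) but not the control livers (155 to 407). *Hilpda*, an inhibitor of *Pnpla2* known to be induced by hypoxia, was among the 3 of 47 related genes that were higher in tumor than in pre-metastatic liver, at 20.4 to 70.4 RPKM against 1.36 to 2.83 RPKM (log2 fold change 2.93, adjusted *p* = 5.62e-10). The other pair were *Agpat1* (2.09) and *Fabp4* (1.17), while 41 were lower, with a median of -2.48 over the list. *Fabp1*, *Slc27a5*, *Aadac*, *Slc27a2*, *Hsd17b13* and *Ces1f* had the largest falls of the list. Of these, *Slc27a5*, *Aadac*, *Slc27a2* and *Hsd17b13* reached 10 counts in too few tumors and passed the filter through the livers. Their fold changes are therefore not given, and for such genes a lower call says little beyond the filter. The 41 and the median include them. The counts of 3 and 41 are those with TMM, and genes called lower were not always lower in RPKM. *Plin3*, called lower, was at 36.7 to 47.4 RPKM in the tumors and 19.8 to 38.7 RPKM in the pre-metastatic livers. *Faf2*, also called lower, was at 12.4 to 19.2 and 8.36 to 13.3 RPKM. How many of the 41 were like this was not counted, and calls with library totals are not given for the list. *G0s2* ranged widely among the tumors, from 0.700 RPKM in M4 to 13.6 RPKM in M1 (median 3.44), with a log2 fold change of -4.56 against pre-metastatic liver (SE 0.55, adjusted *p* = 2.69e-07, edgeR). Every tumor thus held more *Hilpda* than *G0s2* in RPKM, and every liver more *G0s2* than *Hilpda*.

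*Pnpla2* was at 11.2 to 17.8 RPKM in the tumors (median 13.4), overlapping the pre-metastatic livers. Its log2 fold change against them was -1.64 (SE 0.12, adjusted *p* = 1.99e-10, edgeR) with TMM and -0.45 (adjusted *p* = 0.00139) with library totals. *Plin4* was at 0.355 to 0.770 RPKM in the tumors (median 0.503), within the range of the pre-metastatic livers. Its call against them (log2 fold change -1.15, SE 0.36, adjusted *p* = 0.00670, edgeR) did not hold with the mouse as a block (-0.94, adjusted *p* = 0.0507), within the early phase (-1.0, adjusted *p* = 0.109) or with library totals (0.03, adjusted *p* = 0.929), and the exact rank-sum test on RPKM gave *p* = 0.796. Against control liver the log2 fold change of *Plin4* was -3.67 with TMM and -2.59 with library totals. *Hdgfrp2*, which it overlaps, had 3005 to 6252 counts in the tumors.

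*Cidec* was at 0 to 0.363 RPKM in the tumors (0 to 46 counts), with 5 of 9 at 0, where 3 counts would be 0.0227 to 0.0343 RPKM. *Mogat1* had 0 to 3 counts, *Pnpla3* 0 to 2 and *Cidea* 0 to 1, at or under the floor of 3 counts in every tumor. The pre-metastatic livers had 31 to 258 counts of *Cidec*, 1 to 30 of *Mogat1* and 12 to 94 of *Pnpla3*, so *Mogat1* overlapped with the tumors and *Pnpla3* did not. *Cidec* overlapped in counts but just not in RPKM, with 0.363 in the highest tumor and 0.371 in the lowest liver. Of the lists around the 10 genes, 10 of 12 PPAR alpha targets and 11 of 13 regulators were lower in tumor than in pre-metastatic liver, with medians of -4.59 and -3.90 against 0.13 over all genes tested, genes that passed the filter through the livers included. These counts are those with TMM, with which 39.5% of all genes tested were called lower. *Ppara*, *Cyp4a10* and *Cyp4a14* are among the genes that passed through the livers, and for these a lower call says little beyond the filter. *Ppara* itself was at 0 to 0.0724 RPKM in the tumors, and *Hif1a*, the hypoxia regulator, was the 1 regulator called higher with TMM (0.90). In RPKM *Ppard* was higher as well, without overlap, at 9.18 to 14.8 in the tumors and 1.52 to 8.84 in the pre-metastatic livers. The groups overlapped in *Cebpb*, whose median was 106 RPKM in the tumors and 84.6 RPKM in the pre-metastatic livers.

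Within the livers, the genes whose deviations from their group mean went most closely with each of the 10 (Pearson *r* of log2(RPKM + 1) over 14 livers, the best of all genes tested and so given as a description) were for *Dgat2* the transcripts *Ugt1a1* (0.967) and *Ugt1a5* (0.964), which share exons with each other, after 1 gene without a symbol. They were *Inhbe* (0.910) and *Bdh1* (0.900) for *Cidec*, also after 1 gene without a symbol, *Cntrl* (0.843), *Tmub1* (0.824) and *Clip1* (0.817) for *G0s2*, and *Dcaf6* (0.930), *Ldb1* (0.894) and *Bin3* (0.874) for *Pnpla2*. For the perilipins they were *Kri1* (0.863), *Micall1* (0.857) and *Neurl4* (0.851) for *Plin5*, *Med22* (0.919), *Baz1b* (0.912) and *Cep95* (0.892) for *Plin4*, and *Parp9* (0.914), *Atp9a* (0.913) and *Acot8* (0.912), the last a peroxisomal thioesterase, for *Plin2*. For the low genes they were *Tcf19* (0.897), *Dtl* (0.891) and *Ercc6l* (0.888) for *Pnpla3* and *Map1b* (0.819), *Cnbd2* (0.817) and *Hmgn3* (0.815) for *Cidea*, and for *Mogat1* *AK010878* (0.910) and *Lamb3* (0.901). Among the 10 genes themselves, *Plin4* went with *Plin5* (0.76), *Cidec* with *Plin2* (0.65) and *Mogat1* (0.65), *Mogat1* with *Plin2* (0.61), and *G0s2* with *Pnpla2* (0.60) across the same livers. *Mogat1* was at 1.93 RPKM in C7, against 0.383 RPKM in the next control liver. C7 was also the highest control liver in *Cidec* (24.2 RPKM) and *Plin2* (407 RPKM). The correlations of *Mogat1* may thus rest largely on this 1 library, and they were not computed without it.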

How the data were processed

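Poly(A) RNA of 5 control livers, 9 pre-metastatic livers and 9 primary tumors was sequenced from libraries made with the NEBNext Ultra kit. The authors deposited the raw read count of each gene, without normalization, and its RPKM, with HISAT2, HTSeq 0.6.0 and the mm10 build named in the submitters' processing notes. The deposited RPKM could be recomputed from the counts, gene lengths and library totals to within 4.95e-08 of each value above 0.01 RPKM. All 46 columns were matched to samples by mouse number and tissue. No pair of libraries was alike within sampling noise (smallest chi-square per degree of freedom 44.5).

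Counts were tested with edgeR 4.0.16 in R 4.3.3 (TMM, robust quasi-likelihood fit, two-sided) on genes that reached 10 counts in 5 or more of the libraries compared, with Benjamini-Hochberg adjustment over all genes tested and a threshold of 0.05. For single genes, RPKM values were also compared by a Wilcoxon rank-sum test, exact and two-sided. The clock index was the mean standardized log2(RPKM + 1) of *Ciart*, *Dbp* and *Per3*, less that of *Clock*, *Arntl* and *Npas2*, and livers were parted at its largest gap. Alternatives were DESeq2 1.42.0, limma 3.58.1 on log2 of RPKM plus 1 or 0.1, RLE factors, library totals, no filter, all libraries in 1 fit, each library left out, clock phase and the mouse as a block. Leaving out the livers with *Adipoq* or the tumors with *Alb* was added after seeing the data.

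Tumor and pre-metastatic liver share the mouse. The correlation of their deviations from the group means was 0.0700 on average within mice (-0.0302 to 0.177) and -0.00900 between mice. Batches of preparation or sequencing are not given in the sources used here, and floors of 3 counts cover counting error only, while intervals of 2 SE come from the edgeR fit and include the spread between mice. The 10 genes, the lists and the clock genes were chosen with earlier results of these data known. All 10 genes are named, with up to 6 called rises and 6 called falls of the lists of lipid, PPAR alpha and regulator genes, marker genes beside a result, and the 3 nearest genes of each of the 10. Motifs were searched in RefSeq promoters of GRCm38.p6. The steps were tested on simulated data.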

Additional observations from a re-analysis of the deposited data

Results flagged for a closer look

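In 4 of 27 sets of values (a gene in a group) the highest library stood apart from the rest by Dixon's criterion, which chance alone would give in about 1 in 20 groups. *Mogat1* reached 1.93 RPKM in control liver C7, against 0.383 RPKM in the next. *Pnpla3* reached 0.109 RPKM in control liver C5, against 0.0350 RPKM in the next. *Cidea* reached 0.387 RPKM in control liver C6, against 0.0782 RPKM in the next, and C6 also had the most *Adipoq*, 2.65 RPKM. *Plin5* reached 0.0875 RPKM in tumor M12, against 0.0426 RPKM in the next, and M12 also had the most *Alb* of the tumors, 173 RPKM.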

How the results depend on the processing

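Between the livers, the falls of *Cidec*, *G0s2*, *Plin4*, *Plin5* and *Pnpla2* kept their direction and their call in all 24 alternatives, with log2 fold changes of -3.73 to -3.25, -2.79 to -2.49, -2.67 to -2.38, -2.44 to -2.16 and -1.10 to -0.94 when each library was left out. *Pnpla3* kept its call in 17 of 24 (1.69 to 2.85 with a library left out), and was lost as well with limma on log2(RPKM + 1) (0.13, adjusted *p* = 0.0886). *Mogat1* (-2.17 to -0.73) passed with DESeq2 (-1.91, adjusted *p* = 0.0485), with all libraries in 1 fit (-1.88, 0.0470) and without C5 (-2.17, 0.0484). *Dgat2* turned negative with library totals (-0.05), limma (-0.07 with either pseudocount), the early phase (-0.20), the clock index (-0.16) and without the livers with *Adipoq* (-0.03), and ran from -0.06 to 0.10 with each library left out (-0.02 without C4 or M2, -0.01 without C6). *Plin4* in tumor against pre-metastatic liver became 0.03 with library totals and 0.04 and 0.22 with limma. With the mouse as a block 16314 genes were called in place of 16447, and of *Plin2*, *Plin4*, *G0s2*, *Pnpla2* and *Dgat2* only *Plin4* lost its call. The number of genes called between the livers was 2674 without the livers with *Adipoq* (8 pre-metastatic and 3 control livers left) against 5250, and 4267 to 5260 with each library left out. In the tumor comparisons it was 16116 to 16298 and 14798 to 15711. Against control liver *Plin2*, *Plin4*, *G0s2*, *Pnpla2* and *Dgat2* stayed lower in tumor in all 24 alternatives. *Cidea* was too low to be tested, and counts under about 10 limit what *Pnpla3*, *Mogat1* and the tumor values of *Plin5* and *Cidec* can show.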
